A study of Arabidopsis with 12 samples.

Results

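Aquaporins are the channel proteins through which water and small uncharged solutes cross plant membranes. The deposited expression table annotates 38 loci with the word aquaporin, out of 28693 loci in all, and each of the 38 holds a single gene. Members were chosen by that annotation and by a level of at least 1 FPKM (read fragments scaled by gene length and by the mapped total of the library) in at least 3 libraries. No difference between groups was a criterion, but some members reached that level only in groups where they were high. The rule left 27 aquaporins among 20173 loci tested, and 11 aquaporin loci fell below the level.

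The samples were Arabidopsis thaliana seedlings, profiled by RNA sequencing in 12 libraries. The groups were the mutant phytoalexin deficient 4 (pad4) labelled -Fe, pad4 labelled +Fe, the Col-0 wild type labelled -Fe and the wild type labelled +Fe, with 3 libraries each. All grew on agar with Murashige and Skoog medium, and the treatment was solid medium without Fe or complete medium for 7 d, with 7-d-old seedlings used for RNA. The PAD4 protein, a partner of EDS1, promotes salicylic acid accumulation in immunity, and the study asks how salicylic acid bears on the response to low Fe. The allele of pad4 is not given in the sources used here. The labels disagree on the tissue, which is the shoot in one field, leaves with roots in the extraction protocol and whole seedlings elsewhere. Nothing in them ties replicates to separate plants or plates, so p-values measure the spread between these libraries, which may be technical. All libraries are seedlings in bulk, in which fewer cells of a type and less RNA per cell cannot be told apart.

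The Fe labels go against genes of known response. bHLH100, a transcription factor gene induced when Fe is short, lay at 0.122 to 0.666 FPKM in the 6 libraries labelled -Fe and at 976 to 1137 FPKM in the 6 labelled +Fe. FER1, a ferritin gene induced when Fe is ample, lay at 271 to 333 FPKM in libraries labelled -Fe and at 10.3 to 11.8 FPKM in those labelled +Fe. Groups are therefore called by their labels throughout, and the Fe label effect is the library group labelled -Fe over the one labelled +Fe. PAD4 RNA was present in the mutant, at 10.3 to 13.6 FPKM in the 6 pad4 libraries and 18.1 to 22.0 FPKM in the 6 wild-type libraries. Relative depth ran from 0.566 to 1.00 of the deepest library, and the absolute depth is unknown. In each group 1 library stood apart (replicate 3 of pad4 labelled -Fe and replicate 2 of the other groups). Their deviations from the group means correlated across loci at 0.41 to 0.51, against at most 0.285 in other pairs.

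The family is divided by membrane location. The plasma membrane intrinsic proteins (PIPs) include the PIP2 group, which conducts water strongly, and the PIP1 group, which often reaches the membrane only in tetramers with PIP2 partners. The tonoplast intrinsic proteins (TIPs) sit in the vacuolar membrane, the NOD26-like proteins (NIPs) carry metalloids such as boric acid and arsenite, and the small basic proteins (SIPs) sit in the endoplasmic reticulum. Aquaporin RNA and protein respond to drought, hormones and nutrient supply, and in roots the PIPs set much of the hydraulic conductivity.

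The summed aquaporin level was 6003 ± 669 FPKM in pad4 labelled -Fe, 5161 ± 142 in pad4 labelled +Fe, 6609 ± 330 in the wild type labelled -Fe and 5029 ± 245 in the wild type labelled +Fe (SD, n = 3 each). These sums were 0.639%, 0.549%, 0.724% and 0.524% of all FPKM in those groups. The highest locus of each library held 4.29%, 11.0%, 4.97% and 13.7% of all FPKM by group mean, in the same order. Its part in the aquaporin shares was not tested. Among the aquaporins, vacuolar channels held the most, between 49.6% and 55.9% of aquaporin FPKM by group mean. PIP1 genes held 24.1% to 28.1%, PIP2 genes 16.2% to 19.4%, SIP genes 1.41% to 2.14% and NIP genes 0.656% to 0.762%. A few genes carried most of the aquaporin level, since 5 of them (TIP1;1, TIP1;2, TIP2;1, PIP1;2 and PIP2;1) made up 67.9% to 73.4% of aquaporin FPKM in every library. Of the 27 genes, 12 averaged 100 FPKM or more and 5 averaged under 5 FPKM.

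**Figure D1:**
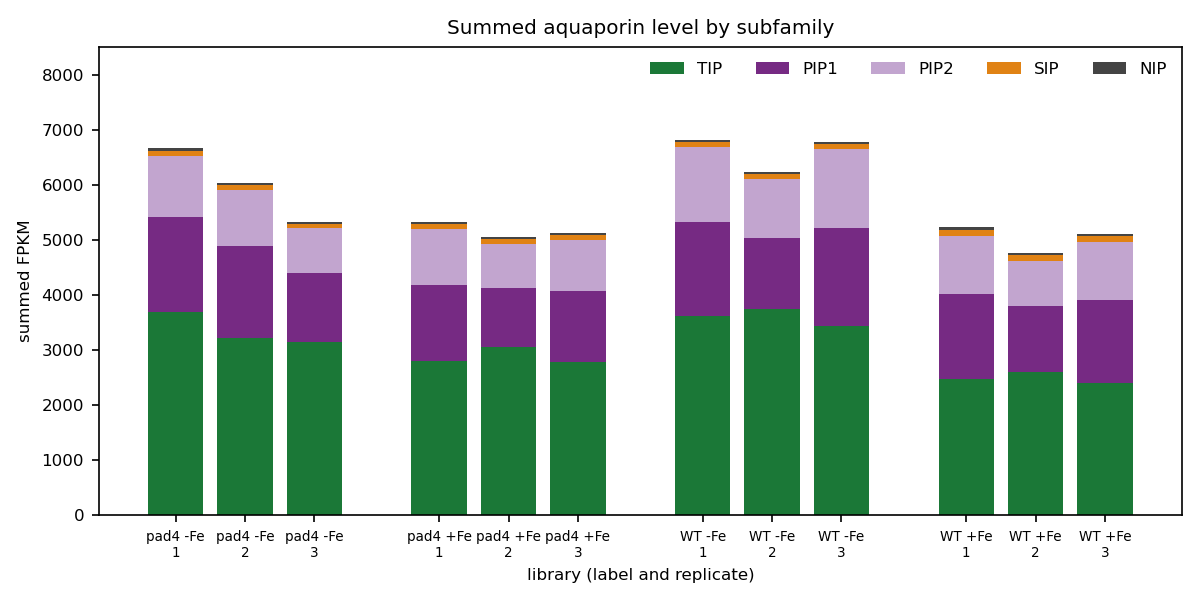
Summed FPKM of the aquaporins in each of the 12 libraries, stacked by subfamily (TIP, PIP1, PIP2, SIP, NIP). Libraries labelled -Fe sum to 5320 to 6818 FPKM and those labelled +Fe to 4754 to 5319 FPKM.

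**Figure D2:**
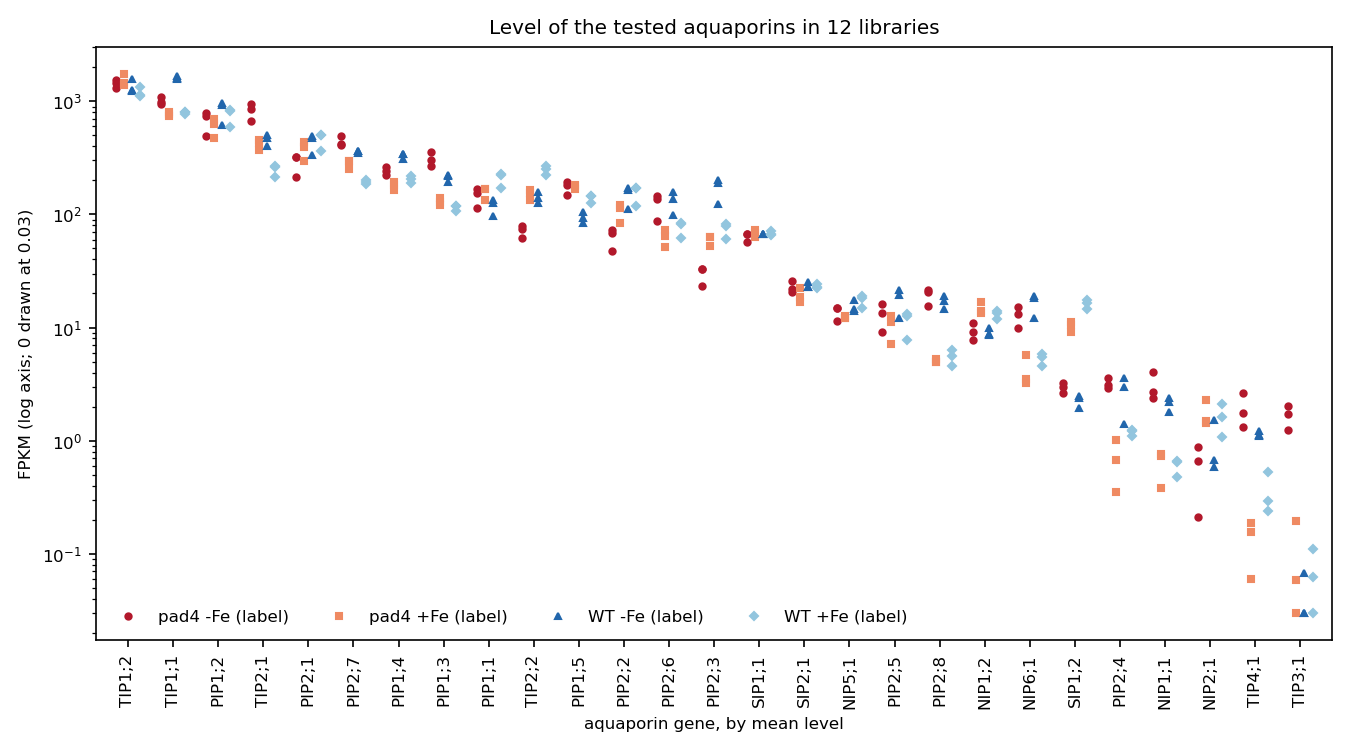
Level of each of the 27 tested aquaporins in FPKM on a log axis, ordered by the mean over 12 libraries, with 1 point per library and 0 drawn at 0.03. Means run from 1384 FPKM at the left to 0.455 FPKM at the right.

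Most aquaporins differed by Fe label in each genotype, as did most loci. In pad4, 18 of 27 were called, where 57.4% of all loci were, and in the wild type 17 were called, where 51.9% of all loci were. Of the 27 in pad4, 12 rose in libraries labelled -Fe and 6 fell (limma on log2(FPKM + 1), Benjamini-Hochberg adjusted p under 0.05 over all loci tested). Over all loci, 26.3% were called higher and 31.0% lower in that comparison. In the wild type, 12 rose and 5 fell, where 25.2% of all loci were called higher and 26.7% lower. The medians of the 27 log2 differences were 0.24 in pad4 and 0.19 in the wild type, against -0.05 and -0.02 over all loci. Of the 12 genes that rose in pad4, 11 (91.7%) also rose in the wild type, which is likewise 91.7% of the 12 there. Over all loci, those called higher in both were 68.7% of the ones in pad4 and 71.8% of the ones in the wild type. Of the aquaporins that fell, 3 were shared, 50% of those of pad4 and 60% of those of the wild type, where the shares over all loci were 63.5% and 73.7%. These comparisons share no library. The counts include TIP3;1, TIP4;1 and NIP1;1, which reached the filter only through libraries labelled -Fe, where they were high.

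**Figure D3:**
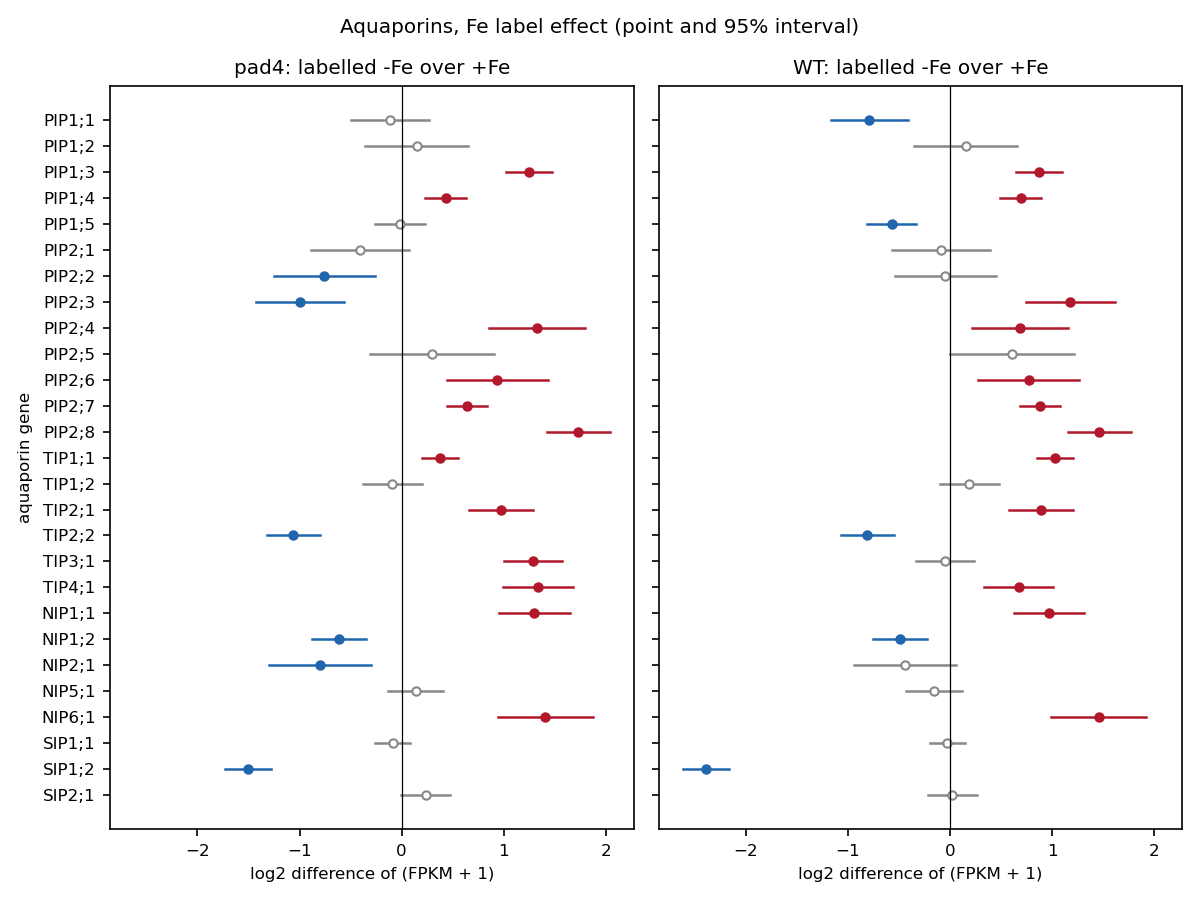
Fe label effect on each aquaporin in pad4 (left) and the wild type (right), as the log2 difference of FPKM + 1 between libraries labelled -Fe and +Fe, with 95% intervals. Red points were called higher, blue points lower, and open grey points were not called (12 higher and 6 lower in pad4, 12 and 5 in the wild type).

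The mutant differed from the wild type in fewer aquaporins. Labelled -Fe, 10 of 27 were called, 5 higher in pad4 and 5 lower, where 13.5% of all loci were called higher and 14.4% lower (27.9% in all). Labelled +Fe, 5 were called, 2 higher and 3 lower, where 3.69% and 5.66% of all loci were (9.35% in all). The medians of the 27 log2 differences were -0.05 labelled -Fe and -0.18 labelled +Fe, against 0.01 and 0.01 over all loci. The count labelled +Fe rests on the fit. Without the 4 libraries that stand apart it was 4 higher and 8 lower (7.55% and 8.02% of all loci), and with a block for the replicate number, fitted in the 9 libraries outside the pad4 -Fe group, it was 5 higher and 10 lower (14.7% and 14.5% of all loci). The calls that this block added were PIP1;3, PIP1;5 and TIP1;2 as higher in pad4, and PIP1;1, PIP1;2, PIP1;4, PIP2;1, PIP2;2, PIP2;3 and PIP2;6 as lower. Between the genotypes the Fe label effect itself differed for 5 aquaporins by the interaction term, 3 higher in pad4 and 2 lower, where 7.07% and 7.58% of all loci were called (14.7% in all). Without the 4 libraries those 3 became 6 and the 2 lower became 3 (9.92% and 10.3% of all loci), and the 3 became 5 without pad4 labelled -Fe replicate 3 alone. Labelled -Fe, 7 were higher and 8 lower in pad4 without the 4 libraries (16.3% and 15.7% of all loci). The higher counts labelled -Fe and in the interaction include TIP3;1, which passed the filter only through pad4 libraries labelled -Fe, where it was high.

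**Figure D4:**
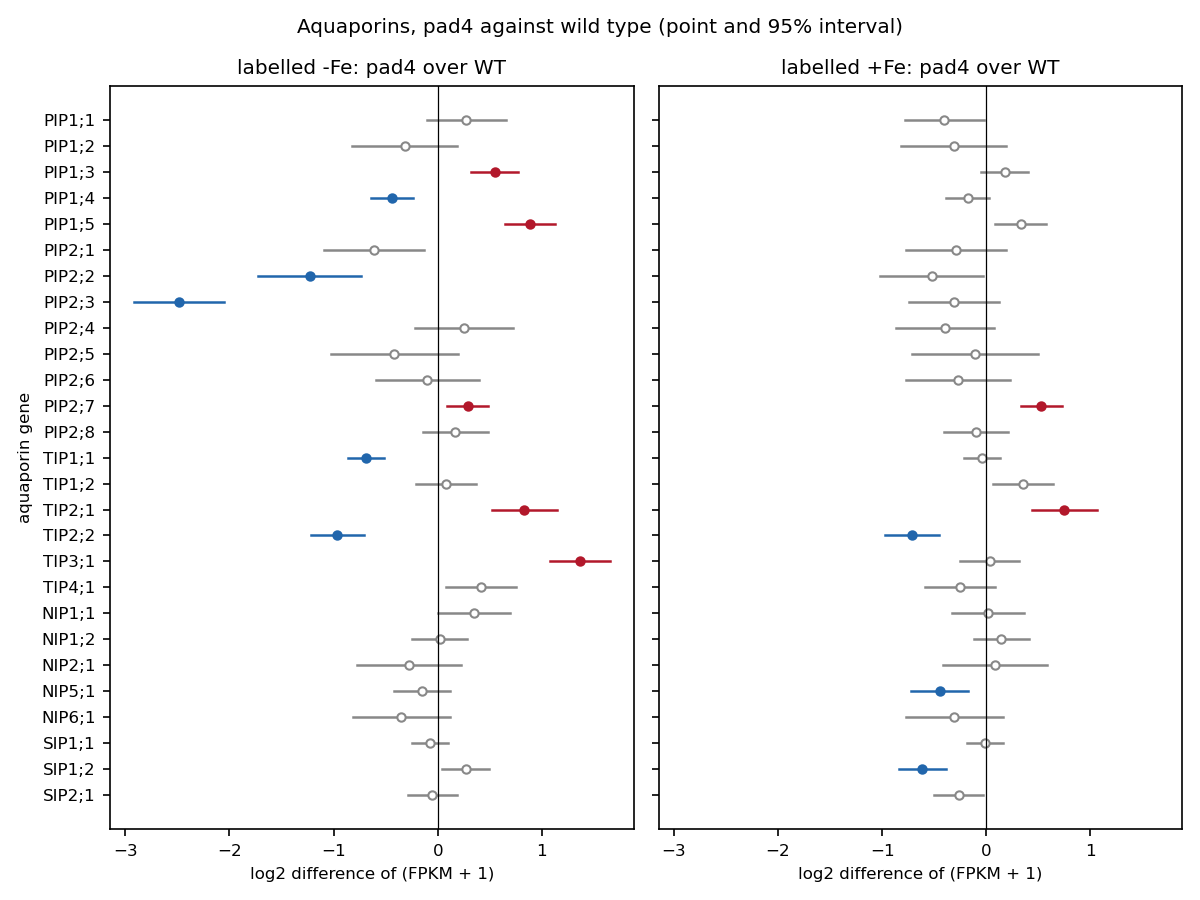
Difference between pad4 and the wild type for each aquaporin, labelled -Fe (left) and labelled +Fe (right), as the log2 difference of FPKM + 1 with 95% intervals. Red points were called higher in pad4, blue points lower, and open grey points were not called (5 and 5 labelled -Fe, 2 and 3 labelled +Fe).

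Among the PIP1 genes, 2 of 5 rose by the Fe label in both genotypes and none fell in both, where 18.1% of all loci were called higher in both and 19.7% lower in both. PIP1;3 (AT1G01620, chromosome 1, 225665 to 227302 on TAIR10) had 356, 305 and 271 FPKM in pad4 labelled -Fe and 139.6, 120.5 and 129.8 FPKM in pad4 labelled +Fe. In the wild type it had 219, 193 and 222 FPKM labelled -Fe and 118, 108 and 118 FPKM labelled +Fe. Every library labelled -Fe lay above every one labelled +Fe, and the mutant lay above the wild type labelled -Fe without overlap. The Fe label difference was 1.24 log2 units in pad4 (SE 0.10, limma adjusted p = 1.59e-06) and 0.87 in the wild type (SE 0.10, adjusted p = 2.73e-05). Labelled -Fe, pad4 exceeded the wild type by 0.55 log2 units (SE 0.10, adjusted p = 0.00198).

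PIP1;4 (AT4G00430, chromosome 4, 185450 to 187627) encodes a channel known to pass hydrogen peroxide into the cytoplasm during immune responses. It had 265, 242 and 224 FPKM in pad4 labelled -Fe and 196, 164 and 182 FPKM in pad4 labelled +Fe. Wild-type values were 339.7, 307 and 345 FPKM labelled -Fe and 217, 188 and 208 FPKM labelled +Fe. Both genotypes were higher where labelled -Fe, with no overlap, and there pad4 lay below the wild type. Its Fe label difference was 0.43 log2 units in pad4 (SE 0.09, limma adjusted p = 0.00203) and 0.69 in the wild type (SE 0.09, adjusted p = 7.31e-05). The mutant was lower labelled -Fe by a log2 difference of -0.44 (SE 0.09, adjusted p = 0.004).

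PIP1;5 (AT4G23400, chromosome 4, 12220743 to 12222371) behaved differently in the genotypes. It had 193, 183 and 148 FPKM in pad4 labelled -Fe and 182, 169 and 177 FPKM in pad4 labelled +Fe, which overlap. Values in the wild type were 93.3, 83.9 and 105 FPKM labelled -Fe and 146, 127 and 147 FPKM labelled +Fe, which do not. Wild-type libraries labelled -Fe were the low ones of the 12. The gene fell in the wild type by 0.57 log2 units (SE 0.11, limma adjusted p = 0.00109), and labelled -Fe it was 0.88 log2 units higher in pad4 (SE 0.11, adjusted p = 0.000117). The interaction was 0.55 (SE 0.16, adjusted p = 0.0354). That call was lost after quantile normalization and without each library in turn except pad4 labelled -Fe replicate 3, wild type labelled -Fe replicate 3 and wild type labelled +Fe replicate 2, with adjusted p from 0.00366 to 0.0900 over the alternatives.

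PIP1;1 (AT3G61430, chromosome 3, 22733309 to 22735335) had 168, 154 and 114 FPKM in pad4 labelled -Fe and 168, 133 and 166 FPKM in pad4 labelled +Fe. In the wild type the values were 126, 97.7 and 135 FPKM labelled -Fe and 226, 171 and 224 FPKM labelled +Fe. Only the wild-type groups stood apart from each other by the Fe label, with -0.79 as log2 difference (SE 0.17, limma adjusted p = 0.00256). The interaction of 0.68 (SE 0.24) did not pass the test at an adjusted p of 0.0921. It did pass without pad4 labelled -Fe replicate 3, without wild type labelled +Fe replicate 2 and without the 4 libraries that stand apart. PIP1;2 (AT2G45960), a highly expressed gene whose product is known to pass carbon dioxide as well as water, averaged 675 ± 157, 605 ± 115, 841 ± 190.4 and 751 ± 132 FPKM in pad4 labelled -Fe, pad4 labelled +Fe, wild type labelled -Fe and wild type labelled +Fe (SD, n = 3 each). It was called in no comparison with all 12 libraries and no block. With the block in the 9 libraries its log2 difference labelled +Fe was -0.31 (adjusted p = 0.0046), and that by the Fe label in the wild type 0.15 (adjusted p = 0.0343).

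Of the 8 PIP2 genes, 4 rose and 2 fell by the Fe label in pad4, where 26.3% of all loci were called higher and 31.0% lower. In the wild type 5 rose and 0 fell, where 25.2% and 26.7% of all loci were called so. The share of all loci called in opposite directions in the genotypes was not counted. PIP2;3 (AT2G37180, chromosome 2, 15617708 to 15619155), known as a desiccation-responsive gene, had 32.9, 32.7 and 23.1 FPKM in pad4 labelled -Fe and 63.1, 52.6 and 62.6 FPKM in pad4 labelled +Fe. In wild-type seedlings it had 192, 123 and 199.8 FPKM labelled -Fe and 79.7, 60.6 and 82.3 FPKM labelled +Fe. The direction of the Fe label was opposite in the genotypes, without overlap in either. It fell in pad4 by 1.00 log2 unit (SE 0.20, limma adjusted p = 0.00122) and rose in the wild type by 1.18 (SE 0.20, adjusted p = 0.000407). The interaction was -2.18 (SE 0.28, adjusted p = 0.000358). Labelled -Fe, pad4 stood at a log2 difference of -2.48 from the wild type (SE 0.20, adjusted p = 3.49e-06).

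PIP2;2 (AT2G37170, chromosome 2, 15613402 to 15614857) is its near-identical neighbour, with 2850 bases between the spans. It had 72.6, 68.6 and 47.3 FPKM in pad4 labelled -Fe and 114, 83.7 and 121 FPKM in pad4 labelled +Fe. The wild type had 164, 112 and 171 FPKM labelled -Fe and 171, 118 and 173 FPKM labelled +Fe. Here the wild-type groups overlapped, while the mutant fell by 0.76 log2 units (SE 0.22, limma adjusted p = 0.0134). Without replicate 3 of either pad4 group that fall was not called, with adjusted p from 2.2e-05 to 0.0529 over the alternatives. Labelled -Fe, pad4 stood at a log2 difference of -1.23 from the wild type (SE 0.22, adjusted p = 0.00169). The interaction was -0.71 (SE 0.32, adjusted p = 0.170), and was called only without the 4 libraries that stand apart.

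Reads from such close copies can be divided between them in counting, so the pair was also summed. The sum of both genes was 92.4 ± 19.2 FPKM in pad4 labelled -Fe, 166 ± 25.8 in pad4 labelled +Fe, 320 ± 74.6 in the wild type labelled -Fe and 228 ± 43.1 in the wild type labelled +Fe (SD, n = 3 each). The ratio of PIP2;3 to its neighbour was 0.472 ± 0.018 and 0.565 ± 0.057 in pad4 labelled -Fe and +Fe. In the wild type it was 1.15 ± 0.036 labelled -Fe and 0.486 ± 0.026 labelled +Fe. The 3 wild-type libraries labelled -Fe had ratios of 1.104 to 1.17, and the other 9 had ratios of 0.453 to 0.628.

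PIP2;7 (AT4G35100, chromosome 4, 16708552 to 16710289), whose product is known to bind the tryptophan-rich sensory protein TSPO, was higher in pad4 under both labels. It had 497, 416 and 408 FPKM in pad4 labelled -Fe and 298, 294 and 254 FPKM in pad4 labelled +Fe. Wild-type values were 347, 365 and 364 FPKM labelled -Fe and 194, 203 and 187 FPKM labelled +Fe. The 4 groups did not overlap in any of these comparisons. The Fe label raised it by 0.64 log2 units in pad4 (SE 0.09, limma adjusted p = 0.000103) and by 0.88 in the wild type (SE 0.09, adjusted p = 9.03e-06). The genotype difference was 0.53 labelled +Fe (SE 0.09, adjusted p = 0.0038) and 0.29 labelled -Fe (SE 0.09, adjusted p = 0.032). That labelled -Fe was not called with only the compared groups in the fit, nor without pad4 labelled -Fe replicate 1 or any 1 of the wild-type libraries labelled -Fe (adjusted p from 0.0253 to 0.103).

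PIP2;8 (AT2G16850, chromosome 2, 7301581 to 7303437) rose by the Fe label in both genotypes. Its values were 21.7, 20.6 and 15.4 FPKM in pad4 labelled -Fe and 5.27, 4.93 and 4.92 FPKM in pad4 labelled +Fe. Values in the wild type were 17.2, 14.6 and 18.8 FPKM labelled -Fe and 5.60, 4.55 and 6.39 FPKM labelled +Fe. Labels separated the libraries and genotypes overlapped. The log2 difference was 1.73 in pad4 (SE 0.14, limma adjusted p = 1.46e-06) and 1.46 in the wild type (SE 0.14, adjusted p = 5.82e-06).

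PIP2;6 (AT2G39010, chromosome 2, 16291477 to 16294034) had 138, 144 and 86.9 FPKM in pad4 labelled -Fe and 73.2, 51.1 and 64.5 FPKM in pad4 labelled +Fe. In the wild type it had 138, 98.3 and 157 FPKM labelled -Fe and 84.2, 61.9 and 81.7 FPKM labelled +Fe. It rose by 0.94 log2 units in pad4 (SE 0.23, limma adjusted p = 0.00429) and 0.77 in the wild type (SE 0.23, adjusted p = 0.014), again with no overlap by label and overlap by genotype. The call in the wild type was lost without wild type labelled -Fe replicate 3 or labelled +Fe replicate 2 (adjusted p from 4.68e-05 to 0.0592).

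The remaining PIP2 genes were PIP2;1, PIP2;5 and PIP2;4. PIP2;1 (AT3G53420), a main water channel of leaves and roots, averaged 285 ± 62.8, 377 ± 72.6, 434 ± 88.4 and 460.1 ± 82.4 FPKM in pad4 labelled -Fe, pad4 labelled +Fe, wild type labelled -Fe and wild type labelled +Fe (SD, n = 3 each). Labelled -Fe, its log2 difference between pad4 and the wild type was -0.61 (SE 0.22, limma adjusted p = 0.0602), which passed with the replicate number as a block, without wild type labelled -Fe replicate 2 and without the 4 libraries. PIP2;5 (AT3G54820) averaged 12.9 ± 3.45, 10.3 ± 2.87, 17.6 ± 4.83 and 11.1 ± 2.91 FPKM in the same order. In the single fit of all 12 libraries it was called in no comparison. Without the 4 libraries it was called by the Fe label at 0.62 log2 units in the wild type (adjusted p = 0.0012) and 0.28 in pad4 (adjusted p = 0.0416). In that fit its genotype difference labelled -Fe was also called, at -0.44 (adjusted p = 0.0125). With the block in the 9 libraries it was called by the Fe label in the wild type, with 0.61 as log2 difference (adjusted p = 9.7e-05). PIP2;4 (AT5G60660), known mainly from roots, averaged 3.18 ± 0.342, 0.683 ± 0.335, 2.64 ± 1.11 and 1.19 ± 0.0848 FPKM. It rose by the Fe label by 1.33 log2 units in pad4 (SE 0.21, adjusted p = 0.000288) and 0.68 in the wild type (SE 0.21, adjusted p = 0.0193). The call in the wild type was lost without replicate 1 of either wild-type group or replicate 3 labelled -Fe (adjusted p from 0.000619 to 0.0839).

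The vacuolar channels include the most abundant aquaporins of these libraries. TIP1;1 (AT2G36830, chromosome 2, 15445425 to 15446574), the gamma-TIP of vegetative vacuoles, had 1099, 977 and 945 FPKM in pad4 labelled -Fe and 779, 807 and 737 FPKM in pad4 labelled +Fe. In wild-type seedlings it had 1679, 1610.4 and 1575 FPKM labelled -Fe and 799, 813 and 773 FPKM labelled +Fe. Wild-type libraries labelled -Fe stood highest, pad4 labelled -Fe came between, and the genotypes overlapped labelled +Fe. The rise was 1.03 log2 units in the wild type (SE 0.08, limma adjusted p = 9.88e-07) and 0.38 in pad4 (SE 0.08, adjusted p = 0.0019), with an interaction of -0.65 (SE 0.11, adjusted p = 0.00268). After quantile normalization the rise in pad4 was not called (adjusted p from 0.00111 to 0.0646 over the alternatives). Labelled -Fe, pad4 was lower at a log2 difference of -0.69 (SE 0.08, adjusted p = 6.65e-05).

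The close relative TIP1;2 (AT3G26520) averaged 1436 ± 126, 1534 ± 187, 1367 ± 193 and 1197 ± 131 FPKM in pad4 labelled -Fe, pad4 labelled +Fe, wild type labelled -Fe and wild type labelled +Fe (SD, n = 3 each). In the single fit of all 12 libraries TIP1;2 was called in no comparison. Without the 4 libraries that stand apart it was called labelled +Fe, with 0.35 as log2 difference between pad4 and the wild type (limma adjusted p = 0.0431). With the block in the 9 libraries it was called labelled +Fe, with 0.36 as log2 difference between pad4 and the wild type (adjusted p = 0.00099), and by the Fe label in the wild type, with 0.19 (adjusted p = 0.00506). It was the highest aquaporin in 9 libraries, and the gamma-TIP was the highest in the 3 wild-type libraries labelled -Fe.

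TIP2;1 (AT3G16240, chromosome 3, 5505404 to 5508414), a delta-TIP that carries ammonia as well as water, was higher in pad4 under both labels and higher labelled -Fe in both genotypes. It had 952, 856 and 676 FPKM in pad4 labelled -Fe and 456, 369 and 432 FPKM in pad4 labelled +Fe. The wild type had 501, 406 and 477 FPKM labelled -Fe and 269, 216 and 263 FPKM labelled +Fe. None of these 4 comparisons had overlapping groups. The Fe label difference was 0.97 log2 units in pad4 (SE 0.14, limma adjusted p = 0.00014) and 0.89 in the wild type (SE 0.14, adjusted p = 0.000299). The genotype difference was 0.83 labelled -Fe (SE 0.14, adjusted p = 0.00108) and 0.75 labelled +Fe (SE 0.14, adjusted p = 0.00709). The same span of the table also holds AT3G16250, at 119 ± 13.7, 64.9 ± 1.68, 96.6 ± 12.4 and 46.8 ± 5.23 FPKM in pad4 labelled -Fe, pad4 labelled +Fe, wild type labelled -Fe and wild type labelled +Fe (SD, n = 3 each). Its means, like those of the delta-TIP, were higher labelled -Fe in both genotypes and higher in pad4 under both labels. Whether reads were counted by strand is not given in the sources used here, so reads shared between overlapping genes were not tested.

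TIP2;2 (AT4G17340, chromosome 4, 9699253 to 9700410), the related delta-TIP known mainly from roots, ran the other way in all of them. It had 79.4, 74.0 and 62.5 FPKM in pad4 labelled -Fe and 156, 134 and 164 FPKM in pad4 labelled +Fe. Wild-type values were 158, 127 and 139 FPKM labelled -Fe and 266, 223 and 255 FPKM labelled +Fe. The groups again did not overlap. It fell under the Fe label by 1.06 log2 units in pad4 (SE 0.12, limma adjusted p = 1.6e-05) and 0.81 in the wild type (SE 0.12, adjusted p = 0.000138). The genotype difference was -0.96 labelled -Fe (SE 0.12, adjusted p = 9.64e-05) and -0.71 labelled +Fe (SE 0.12, adjusted p = 0.0033).

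TIP4;1 (AT2G25810), also known from roots, stood at low levels. It averaged 1.91 ± 0.663, 0.134 ± 0.0666, 1.15 ± 0.0712 and 0.352 ± 0.157 FPKM in pad4 labelled -Fe, pad4 labelled +Fe, wild type labelled -Fe and wild type labelled +Fe (SD, n = 3 each). It rose by the Fe label by 1.34 log2 units in pad4 (SE 0.15, limma adjusted p = 2.25e-05) and 0.67 in the wild type (SE 0.15, adjusted p = 0.00337). The interaction of 0.66 (SE 0.22) had an adjusted p of 0.0658, and it passed with limma without the trend and without pad4 labelled -Fe replicate 2. It passed the filter through 6 libraries, all labelled -Fe, so its difference was in part set by that choice.

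TIP3;1 (AT1G73190, chromosome 1, 27521944 to 27523332), the alpha-TIP of protein storage vacuoles in seeds, was detected at 1 FPKM or more in pad4 labelled -Fe alone. It had 1.23, 1.72 and 2.02 FPKM there and was listed at 0, 0.0587 and 0.194 FPKM in pad4 labelled +Fe. The wild type was listed at 0.0676, 0 and 0 FPKM labelled -Fe and at 0, 0.0619 and 0.110 FPKM labelled +Fe. It passed the filter only through the pad4 libraries labelled -Fe, which had to stand out, so the tests that follow describe that choice in part. Its log2 difference on the log2(FPKM + 1) scale was 1.29 by the Fe label in pad4 (SE 0.13, limma adjusted p = 7.83e-06), 1.37 by genotype labelled -Fe (SE 0.13, adjusted p = 1.42e-05) and 1.33 in the interaction (SE 0.18, adjusted p = 0.000587). BETA-TIP (AT1G17810), the other seed-type TIP, stayed below the filter, at up to 0.628 FPKM in pad4 labelled -Fe and listed at 0 in the other 9 libraries.

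Markers of seeds were set beside both. Of 9 seed storage and seed-stage genes, 6 passed the filter, each only through the 3 pad4 libraries labelled -Fe, so that they are higher there follows from that choice and is given with no test. Of the other 3, EM1 averaged 0.0344 FPKM in pad4 labelled -Fe and 0.117 in pad4 labelled +Fe, and EM6 was listed at 0 in pad4 labelled -Fe and averaged 0.0868 in pad4 labelled +Fe. SESA1 averaged 0.448 FPKM in pad4 labelled -Fe and 0.397 in pad4 labelled +Fe. The 9 summed to 75.4 to 91.6 FPKM in pad4 labelled -Fe, 0.485 to 1.26 in pad4 labelled +Fe, 0.307 to 0.325 in the wild type labelled -Fe and 0.795 to 1.63 in the wild type labelled +Fe. Their part in the levels of the seed-type TIPs was not tested.

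**Figure D5:**
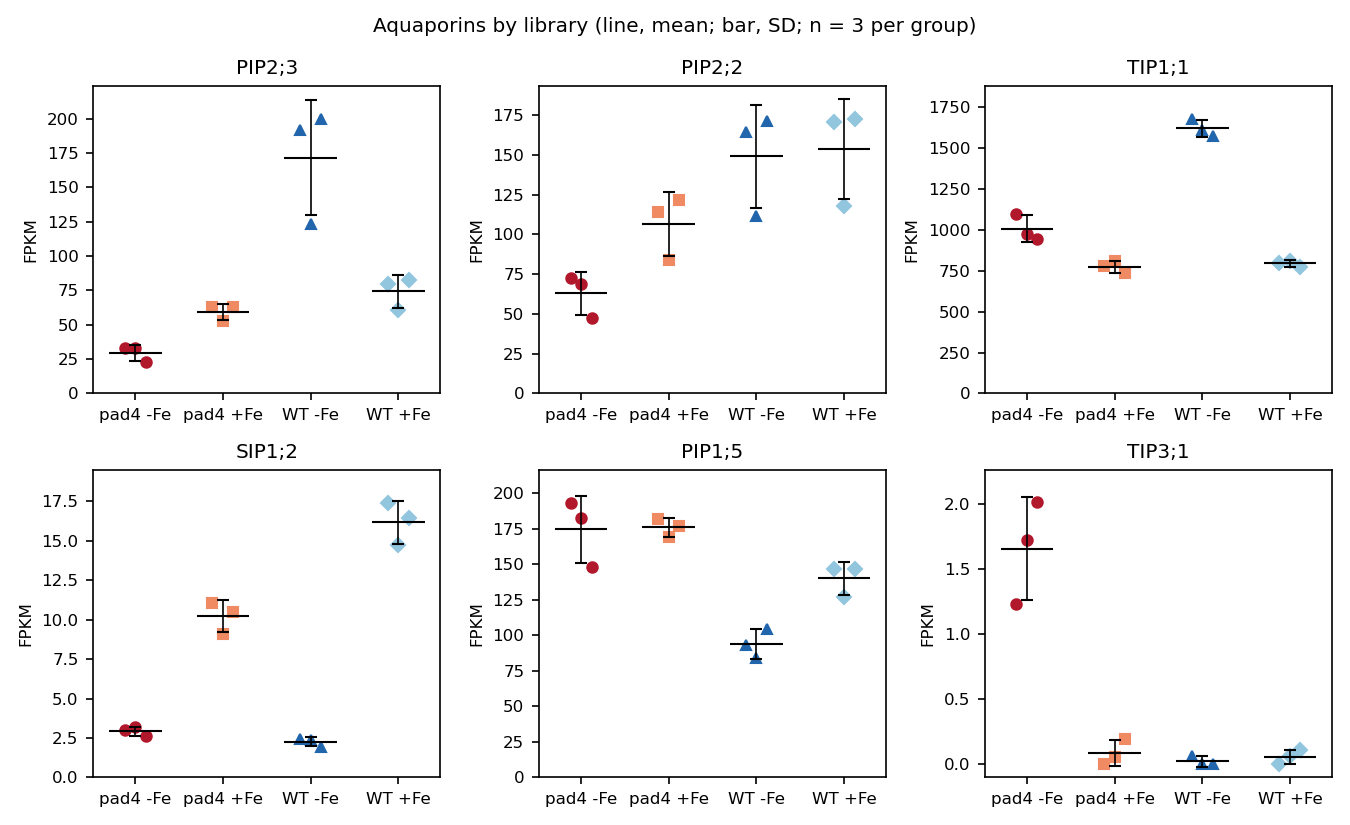
FPKM in each library of 6 aquaporins (PIP2;3, PIP2;2, TIP1;1, SIP1;2, PIP1;5, TIP3;1) in pad4 labelled -Fe and +Fe and wild type labelled -Fe and +Fe, with the mean (line) and SD (bar) of 3 libraries. All but PIP2;2 had a called interaction, and it did not pass the test (adjusted p = 0.170).

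Of the NIP genes, 2 of 5 rose by the Fe label in both genotypes (18.1% of all loci did), and 1 of the 2, NIP1;1, passed the filter only through libraries labelled -Fe. NIP6;1 (AT1G80760, chromosome 1, 30348801 to 30352208), which moves boric acid to young leaves from the nodes of the shoot, had 15.1, 13.0 and 9.83 FPKM in pad4 labelled -Fe and 5.76, 3.26 and 3.53 FPKM in pad4 labelled +Fe. Values in the wild type were 18.1, 12.3 and 19.0 FPKM labelled -Fe and 5.81, 4.56 and 5.51 FPKM labelled +Fe. Labels did not overlap and genotypes did. The log2 difference was 1.41 in pad4 (SE 0.21, limma adjusted p = 0.000169) and 1.45 in the wild type (SE 0.21, adjusted p = 0.000142). Its span also holds AT1G80750, at 65.2 ± 6.70, 55.8 ± 4.17, 83.1 ± 4.01 and 55.7 ± 2.52 FPKM in pad4 labelled -Fe, pad4 labelled +Fe, wild type labelled -Fe and wild type labelled +Fe (SD, n = 3 each), and a share of reads from that gene was not tested.

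NIP5;1 (AT4G10380, chromosome 4, 6431236 to 6434822), the boric acid uptake channel of roots, was not called by the Fe label in either genotype. It had 15.0, 15.0 and 11.3 FPKM in pad4 labelled -Fe and 12.3, 12.1 and 12.6 FPKM in pad4 labelled +Fe. In wild-type seedlings it had 17.4, 14.1 and 14.6 FPKM labelled -Fe and 18.9, 14.8 and 18.2 FPKM labelled +Fe. Labelled +Fe, pad4 lay below the wild type without overlap, with -0.45 as log2 difference (SE 0.12, limma adjusted p = 0.0432). This call was lost with no low-value filter, after quantile normalization and without any 1 library labelled +Fe other than wild-type replicate 2 (adjusted p from 0.00492 to 0.170).

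NIP1;2 (AT4G18910, chromosome 4, 10366059 to 10368381), known for carrying the aluminium malate complex, fell in both genotypes. It had 9.18, 10.9 and 7.82 FPKM in pad4 labelled -Fe and 13.9, 13.5 and 16.8 FPKM in pad4 labelled +Fe. The wild type had 8.83, 8.51 and 9.96 FPKM labelled -Fe and 13.5, 14.0 and 11.99 FPKM labelled +Fe. Groups by label did not overlap and groups by genotype did. The differences were -0.61 log2 units in pad4 (SE 0.12, limma adjusted p = 0.00113) and -0.49 in the wild type (SE 0.12, adjusted p = 0.00521).

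Both remaining NIP genes tested were low. NIP1;1 (AT4G19030), an arsenite channel of roots, averaged 3.04 ± 0.873, 0.625 ± 0.214, 2.13 ± 0.301 and 0.598 ± 0.102 FPKM in pad4 labelled -Fe, pad4 labelled +Fe, wild type labelled -Fe and wild type labelled +Fe (SD, n = 3 each). Its rise was 1.30 log2 units in pad4 (SE 0.16, limma adjusted p = 3.34e-05) and 0.97 in the wild type (SE 0.16, adjusted p = 0.000338). It passed the filter only through the 6 libraries labelled -Fe. NIP2;1 (AT2G34390) averaged 0.582 ± 0.337, 1.74 ± 0.461, 0.929 ± 0.516 and 1.60 ± 0.517 FPKM in the same order, and fell in pad4 by 0.80 log2 units (SE 0.23, adjusted p = 0.0107). It shares its span with AT2G34380, at 4.25 to 5.24 FPKM by group mean.

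Markers of roots were set beside the genes known from roots. Of the 5 aquaporins described above as channels of roots, NIP1;1, PIP2;4 and TIP4;1 rose by the Fe label in both genotypes, TIP2;2 fell in both and NIP5;1 was called in neither. Over all loci, 18.1% were called higher in both and 19.7% lower in both. NIP1;1 and TIP4;1 passed the filter only through libraries labelled -Fe, where they were high. Of 16 root markers, 4 averaged 1 FPKM or more, and the 16 summed to 36.9 to 40.2, 25.4 to 35.4, 26.2 to 34.5 and 25.2 to 31.0 FPKM in pad4 labelled -Fe, pad4 labelled +Fe, wild type labelled -Fe and wild type labelled +Fe. These sums rest mainly on SCR, which averaged 19.6 FPKM over all libraries, and SHR, which averaged 6.31 FPKM. The median of the 16 averages was 0.385 FPKM. PRP3, a root hair gene, was called higher by the Fe label at 1.68 log2 units in pad4 (SE 0.12, limma adjusted p = 3.98e-07) and 0.84 in the wild type (SE 0.12, adjusted p = 9.95e-05). It reached 1 FPKM in 4 libraries, all labelled -Fe, so it passed the filter only where it was high. The other 4 root markers tested were not called in either. Shoot markers moved too, as the 4 of 5 photosynthesis genes with a row summed to 14004 to 20118, 7358 to 9112, 11266 to 15289 and 7228 to 8665 FPKM in the same group order. Of these 4, 3 were called higher by the Fe label in each genotype, where 26.3% of all loci were in pad4 and 25.2% in the wild type. The part of either marker set in the aquaporin levels was not tested. Pollen markers were at 0 in 11 libraries and at 0.0872 FPKM in 1.

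SIP1;2 (AT5G18290, chromosome 5, 6055028 to 6058368) fell by the Fe label in both genotypes. It had 2.98, 3.21 and 2.64 FPKM in pad4 labelled -Fe and 11.1, 9.09 and 10.5 FPKM in pad4 labelled +Fe. Wild-type values were 2.47, 2.39 and 1.95 FPKM labelled -Fe and 17.4, 14.7 and 16.4 FPKM labelled +Fe. Labels separated the libraries in both genotypes, and labelled +Fe the mutant lay below the wild type without overlap. The fall was 1.51 log2 units in pad4, with -1.51 as log2 difference (SE 0.10, limma adjusted p = 3.46e-07), and -2.39 in the wild type (SE 0.10, adjusted p = 7.89e-09). The interaction was 0.89 (SE 0.15, adjusted p = 0.00191), and the genotype difference labelled +Fe was -0.62 (SE 0.10, adjusted p = 0.00358). AT5G18300 lies on the same span, at 4.65 ± 0.560, 9.61 ± 1.49, 3.89 ± 0.601 and 8.36 ± 2.06 FPKM in pad4 labelled -Fe, pad4 labelled +Fe, wild type labelled -Fe and wild type labelled +Fe (SD, n = 3 each). It too was lower labelled -Fe, and its part in the level of the aquaporin was not tested. The other SIP genes were called in no comparison. SIP1;1 (AT3G04090) ranged over all libraries from 56.7 to 72.1 FPKM, and SIP2;1 (AT3G56950) from 16.7 to 25.9 FPKM on a span that carries 18 rows of the table.

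In all, 6 of the 27 genes, 3 of them among the 5 most abundant, were called in none of the 5 comparisons. The share of all loci called in none was not counted. Of these 6 genes, PIP1;2, PIP2;1, PIP2;5 and TIP1;2 were called in at least 1 comparison both with the block in the 9 libraries and without the 4 libraries that stand apart, and SIP1;1 and SIP2;1 in neither. In each group 1 library stands apart. That library had the lowest level of its group in all 4 groups for 15 of the 27 aquaporins (55.6%), against 16.0% of all loci tested. It had the highest in all 4 groups for 0 of the 27, against 19.7% of all loci tested. Without the 4 libraries, 15 aquaporins rose and 7 fell by the Fe label in pad4 (27.7% and 33.7% of all loci), and 14 rose and 5 fell in the wild type (26.7% and 28.9%). With the block in the 9 libraries, 15 rose and 5 fell in the wild type (31.9% and 34.3%). No call of an aquaporin was lost there.

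The 11 loci below the filter were at most 0.722 FPKM in any library. Listed at 0 in all libraries were 5, namely NIP4;1, TIP1;3, AT1G52180, AT2G16835 and AT2G29870, the last 3 without a family name in the annotation. Highest values were 0.722 FPKM for NIP3;1, 0.385 for NIP7;1, 0.330 for TIP2;3, 0.110 for NIP4;2 and 0.0682 for TIP5;1. Several of these are known from pollen. Just inside the filter were the alpha-TIP with 3 libraries at 1 FPKM or more, TIP4;1 and NIP1;1 with 6 each, and NIP2;1 with 7.

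Boron exporters, which act with the NIP boric acid channels, were counted as a related list. BOR1 (AT2G47160), which loads boron into the xylem, averaged 24.4 and 7.23 FPKM in pad4 labelled -Fe and +Fe, and 25.4 and 6.09 FPKM in the wild type labelled -Fe and +Fe. Its rise was 1.63 log2 units in pad4 (SE 0.08, limma adjusted p = 1.47e-08) and 1.90 in the wild type (SE 0.08, adjusted p = 4.52e-09). Of 4 tested members of 5, 2 rose in each genotype, where 26.3% of all loci were called higher in pad4 and 25.2% in the wild type, the other being BOR5 in pad4 at 0.47 (SE 0.14, adjusted p = 0.0157) and AT3G06450 in the wild type at 0.19 (SE 0.07, adjusted p = 0.0362). BOR5 was not called without pad4 labelled -Fe replicate 2, and AT3G06450 not without 5 of the 6 wild-type libraries taken singly or with only the compared groups in the fit. Neither was called without the 4 libraries. None was called between genotypes, where 27.9% of all loci were called labelled -Fe and 9.35% labelled +Fe. In the interaction none was called either, where 14.7% of all loci were. Medians of the 4 differences were 0.29 in pad4 and 0.07 in the wild type, against -0.05 and -0.02 over all loci.

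Proton pumps energise the membranes in which PIPs and TIPs sit. Of 12 tested among 15, 6 rose and 2 fell by the Fe label in pad4, and 4 rose and 2 fell in the wild type. Called in all were 8 of the 12 in pad4 and 6 in the wild type, where 57.4% and 51.9% of all loci were. AVP1, the vacuolar pyrophosphatase, averaged 525 FPKM in pad4 labelled -Fe and 217 FPKM in pad4 labelled +Fe, with 1.26 as log2 difference (SE 0.14, limma adjusted p = 1.59e-05). HA11, a plasma membrane H+-ATPase, averaged 64.3 and 36.1 FPKM in pad4 labelled -Fe and +Fe, with 0.82 as log2 difference (SE 0.07, adjusted p = 1.54e-06). In the wild type it rose by 0.60 (SE 0.07, adjusted p = 1.87e-05), and HA3, another H+-ATPase, fell by 0.73 (SE 0.07, adjusted p = 6.99e-06). Between genotypes labelled -Fe, 3 pumps were higher in pad4 and 1 lower, where 27.9% of all loci were called, with AVP1 at 0.65 (SE 0.14, adjusted p = 0.00457) and HA11 at 0.32 (SE 0.07, adjusted p = 0.00374). Labelled +Fe, HA2 alone was called, where 9.35% of all loci were. Its log2 difference was -0.28 (SE 0.07, adjusted p = 0.0382), a call that no single left-out library of these groups left standing. No pump had a called interaction, where 14.7% of all loci did. The medians over the 12 were 0.25 in pad4 and -0.0008 in the wild type.

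Regulators of PIP traffic and activity formed a further list. Of 11 tested among 12, 1 rose and 5 fell by the Fe label in pad4, where 26.3% of all loci were called higher and 31.0% lower. Wild-type seedlings had 0 that rose and 6 that fell, where 25.2% and 26.7% of all loci were called so. BAK1, a receptor kinase, averaged 42.4 and 59.7 FPKM in pad4 labelled -Fe and +Fe, with -0.48 as log2 difference (SE 0.06, limma adjusted p = 3.43e-05). The wild type had 43.1 and 67.02 FPKM, a difference of -0.62 (SE 0.06, adjusted p = 4.96e-06). VAMP722, a vesicle protein of the secretory route, had a difference of -0.27 in pad4 (SE 0.06, adjusted p = 0.00419). OST1, the kinase that phosphorylates PIP2;1 in guard cells, had a difference of -0.52 in the wild type (SE 0.08, adjusted p = 0.000221). TSPO, which removes PIPs from the membrane, averaged 0.129 FPKM in pad4 and 0.888 FPKM in the wild type labelled -Fe, with -0.74 as log2 difference (SE 0.13, adjusted p = 0.0016). Labelled +Fe its difference was -0.64 (SE 0.13, adjusted p = 0.0126), which was not called with a pseudocount of 0.1, without wild type labelled +Fe replicate 3 or without the 4 libraries that stand apart. It reached 1 FPKM in 4 libraries, all wild type, so both differences are in part set by the filter. No regulator had a called interaction, where 14.7% of all loci did. Medians were -0.22 in pad4 and -0.25 in the wild type by the Fe label.

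The authors' deposited table for the Fe label in pad4 lists 11 of 27 aquaporins as higher and 6 as lower labelled -Fe at their q under 0.05. By the authors' q, TIP3;1 (0.0638), TIP4;1 (0.0778) and NIP2;1 (0.0938) were not called in pad4, whereas PIP2;5 was higher and PIP2;1 lower. In the authors' deposited table for the wild type, 13 of 26 were higher and 5 lower. The authors' deposited tables for pad4 over the wild type list 4 higher and 7 lower, of 27 labelled -Fe and again of 25 labelled +Fe. For pad4 over the wild type labelled -Fe, the authors' q was 0.352 for TIP3;1 and 0.125 for PIP2;7. Of the genes called in no comparison here, PIP2;1 (0.000495) and PIP2;5 (0.0193) were lower there by the authors' q. Labelled +Fe, PIP1;2 was lower (0.0477) and TIP1;2 higher (0.0422) in pad4. In the wild type PIP2;5 was higher labelled -Fe (0.000198). SIP1;1 and SIP2;1 were called in none of the authors' comparisons. Each table was scaled on its own, and the share of all loci called by the authors was not counted.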

How the data were processed

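The authors computed FPKM per locus from the reads and deposited them for 12 libraries on TAIR 10, per the submitters' processing notes. No aligner or counting tool is named in the sources used here. A further copy of the values is the same to within 0.005 FPKM. The log2 fold, p-value and q-value in the authors' 4 comparison tables are theirs, per the file headers, and their test score was deposited but not used.

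Testing took the loci that reached 1 FPKM in 3 libraries (20173 of 28693). It used limma 3.58.1 under R 4.3.3, with eBayes and its trend, on log2(FPKM + 1). A single fit held all 12 libraries with a mean per group, and p-values were adjusted by Benjamini-Hochberg over all loci tested. The pseudocount of 1 understates changes of low genes. FPKM give no depth, so no counting intervals were made, and a 0 can be a failed estimate. The fit was checked on simulated data.

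Members and lists were chosen with earlier results of these data known. Gene names come from the RefSeq annotation of TAIR10.1, which names 35 of the 38 loci, and coordinates are the files'. Called members that average 5 FPKM or more in the higher group are given per library, up to 6 rises and 6 falls per comparison, and TIP3;1 was added after its values were seen. Of the other lists, up to 2 called genes per comparison with the smallest adjusted p are named, and PRP3 was named after its values were seen.

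Alternatives were no filter, quantile and median-ratio scaling, a pseudocount of 0.1, limma without the trend, a block for the replicate number, only the compared groups, and leaving out each library. A fit that drops the 4 libraries that stand apart, and one with the block in 9 libraries, were added after seeing the data. The former takes 1 of the 3 libraries out of each group. As those were picked from the same data, a narrower spread and more calls can follow from that choice. Replicate numbers came with no statement of pairing. Libraries with the same number had deviations that correlated at 0.12 to 0.51 among the groups other than pad4 labelled -Fe, every pair over 0.1, and at -0.42 to 0.14 with that group.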

Additional observations from a re-analysis of the deposited data

Results flagged for a closer look

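For 5 aquaporins the Fe label effect in pad4 differed from that in the wild type by the interaction term (limma, adjusted p under 0.05). The differences, pad4 minus wild type, were -2.18 log2 units for PIP2;3, -0.65 for TIP1;1, 0.89 for SIP1;2, 0.55 for PIP1;5 and 1.33 for TIP3;1. PIP2;3 was lower in all 3 pad4 libraries labelled -Fe and higher in all 3 wild-type ones than in the libraries labelled +Fe of the same genotype. TIP3;1 passed the filter only through the 3 pad4 libraries labelled -Fe, at 1.23 to 2.02 FPKM, so its difference was built into that choice. The call of PIP1;5 was lost in 10 of 19 refits, 1 of them with quantile normalization. It was kept, among the refits without 1 library, only without pad4 labelled -Fe replicate 3 or wild-type replicates 3 labelled -Fe or 2 labelled +Fe.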

How the results depend on the processing

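Of 486 refits of the called members and the 4 uncalled ones with a printed difference, leaving out no single library, 476 kept direction and side of the threshold, 5 lost the call, 5 gained one and 0 reversed. Of 402 refits without 1 library, the numbers were 373, 25, 4 and 0. Without the 4 libraries that stand apart, pad4 against wild type labelled +Fe gave 4 higher and 8 lower, labelled -Fe 8 lower, and the interaction 6 higher. With the replicate block in the 9 libraries outside that group of pad4 labelled -Fe, labelled +Fe gave 5 higher and 10 lower, and the Fe label effect in the wild type 15 higher and 5 lower. The replicate block in all 12 libraries gave 13 higher and 5 lower for the Fe label in the wild type, 12 and 6 in pad4, 5 and 6 for genotype labelled -Fe, 2 and 3 labelled +Fe, and 3 and 2 for the interaction. Leaving out each library in turn gave ranges of 10 to 13 higher and 5 to 6 lower for the Fe label in the wild type, 12 to 13 and 5 to 6 in pad4, 4 to 6 and 5 to 6 for genotype labelled -Fe, 2 to 2 and 2 to 3 labelled +Fe, and 2 to 5 and 2 to 2 for the interaction. The cause of these changes was not tested. With no low-value filter 25065 loci were tested. Of the 21 results of other lists, 288 of 308 refits kept the call, 20 lost it and 0 reversed. Only 4 libraries of 12 had their best correlation with their own replicate number. Depth limits the genes under about 1 FPKM most, and its size is unknown.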
